A study of Mus musculus with 4 samples.

Results

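The neuregulin genes Nrg1, Nrg2, Nrg3 and Nrg4 and the ErbB receptor genes Egfr, Erbb2, Erbb3 and Erbb4 were examined in a map of TOP2B cleavage complexes. A peak was assigned to a gene when its summit lay in the gene or within 10 kb of it on mouse build GRCm38. By this rule the 8 genes held 51 of the 35539 peaks, and all 51 summits lay inside the genes, with none in the 10 kb on either side.

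The cells were wild-type cortical neurons cultured from Swiss-Webster mouse embryos at embryonic day 16. Etoposide, dissolved in DMSO, was present at 50 µM during the last 30 min before harvest in all 4 libraries. These were 2 precipitated with an antibody to TOP2B (chromatin immunoprecipitation, ChIP) and 2 made from input DNA, so no untreated group was available. The values were a single list pooled by the authors, without replicate values and with unknown depth per library. Counts therefore carry exact Poisson intervals and shares exact Clopper-Pearson intervals, both at 95%, which treat summits as independent and cover counting error only, not the variation between cultures. The list holds no expression values, so the labelled cell type was not checked against markers, and neurons and other cells of the culture were not separated.

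TOP2B is a type II topoisomerase, the main one in neurons after the last cell division. It cuts both strands of DNA, passes another duplex through the gap and rejoins the ends, and etoposide holds it in the cut state. Neuregulins are growth factors with an EGF-like domain, often released from membrane-bound precursors. They bind the receptor tyrosine kinases ErbB3 and ErbB4, which pair with each other or with ErbB2. ErbB2 has no known ligand of its own and ErbB3 has little kinase activity, whereas EGFR answers to EGF and related ligands. In the cortex, ErbB4 is found mainly in inhibitory interneurons, and NRG1 and NRG3 signalling to it is known for roles in the formation of their synapses.

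The only summit within 1 kb of an end of these genes lay at the start of Egfr, and Erbb2, the other receptor gene on chromosome 11, had no summit at all. That contrast rests on a single Egfr summit with a q of 0.110 and on an Erbb2 window of only 45.2 kb. The 250 bases before the start of each are shown for that contrast, from RefSeq on GRCm38.p6, plus strand, 5′ to 3′, with CpG dinucleotides in capitals. The Egfr window is chr11:16751953-16752202 and the Erbb2 window is chr11:98412234-98412483.
Egfr: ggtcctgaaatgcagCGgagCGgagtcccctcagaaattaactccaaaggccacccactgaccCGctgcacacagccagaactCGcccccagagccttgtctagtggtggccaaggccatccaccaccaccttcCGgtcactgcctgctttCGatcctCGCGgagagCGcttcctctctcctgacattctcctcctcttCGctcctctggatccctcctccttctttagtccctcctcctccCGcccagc
Erbb2: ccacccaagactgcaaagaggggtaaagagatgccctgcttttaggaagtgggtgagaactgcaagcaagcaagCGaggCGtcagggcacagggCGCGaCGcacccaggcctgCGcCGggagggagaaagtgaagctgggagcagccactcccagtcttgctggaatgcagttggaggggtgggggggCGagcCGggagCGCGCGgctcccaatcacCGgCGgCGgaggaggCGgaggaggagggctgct
The Egfr window held 11 CpG and was 60.8% G or C, and the Erbb2 window held 16 CpG and was 66.0% G or C. The median over 21045 start windows of protein-coding genes was 10 CpG and 55.6% G or C. The letters GGGCGG, sought on both strands, occurred in the Egfr window and not in that of Erbb2, and occurred in 43.1% of all these windows. Of the 8 genes, 5 had a start in the RefSeq promoter table; those of Nrg3, Nrg4 and Erbb4 overlapped the gene itself. No genome sequence was used here, so no sequence was read under the summits. Whether the features of these windows relate to the presence of a summit was not tested.

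At least 1 summit was found in 6 of the 8 genes, all but Erbb2 and Erbb3. Among all 21631 protein-coding genes, 53.4% had a summit by the same rule, a share that depends on length. It was 98.3% for genes of 1 Mb or more, to which Nrg1, Nrg3 and Erbb4 belong, 90.2% for those of 100 kb to 1 Mb, to which Nrg2 and Egfr belong, and 48.8% for shorter ones. Having a summit was therefore common for genes of these lengths. The 51 summits lay in 3884 kb of gene and flank, a density of 1.31 per 100 kb (0.978 to 1.73). The other protein-coding genes, merged where they overlapped, held 1.65 per 100 kb, and those of 100 kb or more held 1.47, both within that interval. The other protein-coding genes on the same chromosomes held 1.74, just above it. Erbb4 was also left out because it held the most summits, a choice that itself lowered the density. The remaining genes held 1.08 (0.726 to 1.54), an interval below the 1.65 of the other protein-coding genes, which were not trimmed in that way. That interval held the 1.47 of genes of 100 kb or more and the 1.13 of genes of 1 Mb or more.

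Ligand and receptor genes held nearly equal numbers of summits over different lengths. The 4 neuregulin genes held 25 summits in 2519 kb, or 0.993 per 100 kb (0.642 to 1.47), and the 4 receptor genes held 26 in 1366 kb, or 1.90 per 100 kb (1.24 to 2.79). The receptor genes had 1.92 times the density of the neuregulin genes (1.06 to 3.46). Of the 26 receptor summits, 21 lay in Erbb4 alone, and without Erbb4 the ratio was 1.87 (0.560 to 4.98). Among summits at the most common control level, 4.78 as reconstructed from fold and p, it was 1.20 (0.584 to 2.41).

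In order of density the genes were Nrg4 with 3.60 summits per 100 kb (0.742 to 10.5), Egfr with 2.75 (0.893 to 6.42), Nrg2 with 2.46 (0.800 to 5.75), Erbb4 with 1.91 (1.19 to 2.93), Nrg1 with 0.906 (0.434 to 1.67) and Nrg3 with 0.620 (0.249 to 1.28). Erbb2 and Erbb3 had none. Among the 6 genes with summits, none differed from its neighbour in this order beyond counting error, since the interval of each ratio of densities held 1. The largest ratio between neighbours was that of Erbb4 to Nrg1, 2.11 (0.953 to 5.03).

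**Figure D1:**
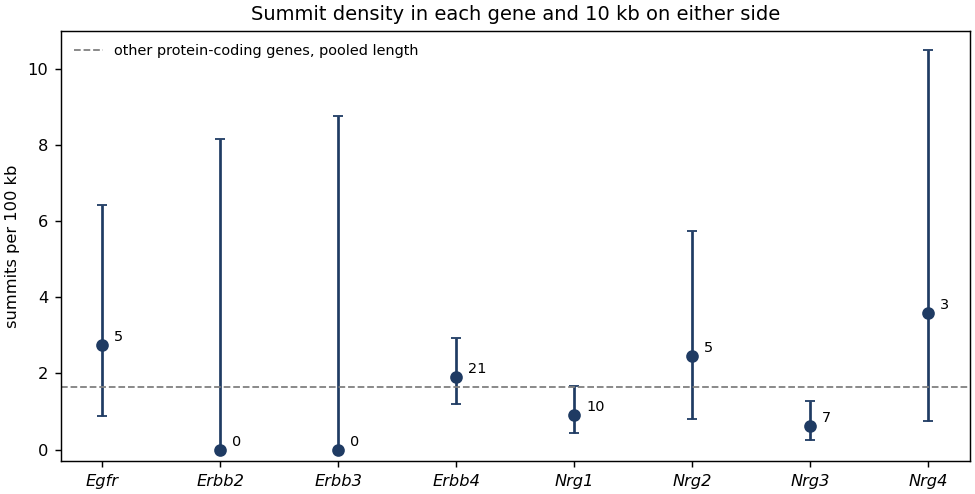
Summits per 100 kb in each gene and the 10 kb on either side (points), with exact 95% Poisson intervals (bars) and the number of summits beside each point; the dashed line is the density of the other protein-coding genes. Only the interval of Nrg3, 0.249 to 1.28, lies wholly below the line at 1.65, and the short genes have wide intervals.

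Erbb4, the neuregulin receptor gene that spans 1077 kb of chromosome 1 (68031884 to 69108576), carried 21 summits, the most of the 8 genes. Nrg1, of 1084 kb on chromosome 8 (31807452 to 32891609), carried 10, and Nrg3, of 1108 kb on chromosome 14 (38365102 to 39473235), carried 7. Erbb4 thus had 3.09 times the density of Nrg3 (1.26 to 8.59), and Nrg1 1.46 times that of Nrg3 (0.502 to 4.52). The comparison of Erbb4 with Nrg3 was picked after the counts were seen, among 16 ratios of density computed at the main setting. Not in that number are the ratio of the 8 genes to other protein-coding genes and the ratios at other settings. The control level was above this common value at 9 of the 21 summits in Erbb4 and at none in Nrg3. Over the whole list, 72.8% of peaks were at the common level. Among summits at the common level the ratio was 1.76 (0.640 to 5.29), and among peaks with a fold at or above the list's median it was 2.06 (0.641 to 7.67).

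Long genes gave a scale for these counts. Of the 59 protein-coding genes of 1 Mb or more, Erbb4 ranked 4 by density, Nrg1 43 and Nrg3 51. The 56 other genes of that length held 1.13 per 100 kb when pooled, within the intervals of Nrg1 and Nrg3. The density of Erbb4 was 1.70 times theirs (1.05 to 2.62). Genes on chromosome X, such as Frmpd4, were kept in the ranks and in this ratio, and neither was computed without them. The lower bound of 1.05 is close to 1, so whether the interval would hold 1 without those genes is not known. At ranks 56 to 59, Il1rapl2, Dmd, Il1rapl1 and Frmpd4 held 2, 3, 1 and 0 summits. At the common control level alone Erbb4 had 12 summits, 1.09 per 100 kb (0.565 to 1.91), and rank 12; the other long genes then held 0.812, a ratio of 1.35 (0.693 to 2.37). Among the genes closest in length, Erbb4 with 21 summits stood beside Asic2, an acid-sensing ion channel gene, with 21, and Rbms3 with 16. Nrg1 with 10 summits stood beside Asic2, Ctnna2, a neuronal alpha-catenin gene, with 15, and Dcc, a netrin receptor gene, with 6. Nrg3 with 7 summits stood beside Anks1b with 16, Auts2 with 12 and Frmpd4, on chromosome X, with 0.

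**Figure D2:**
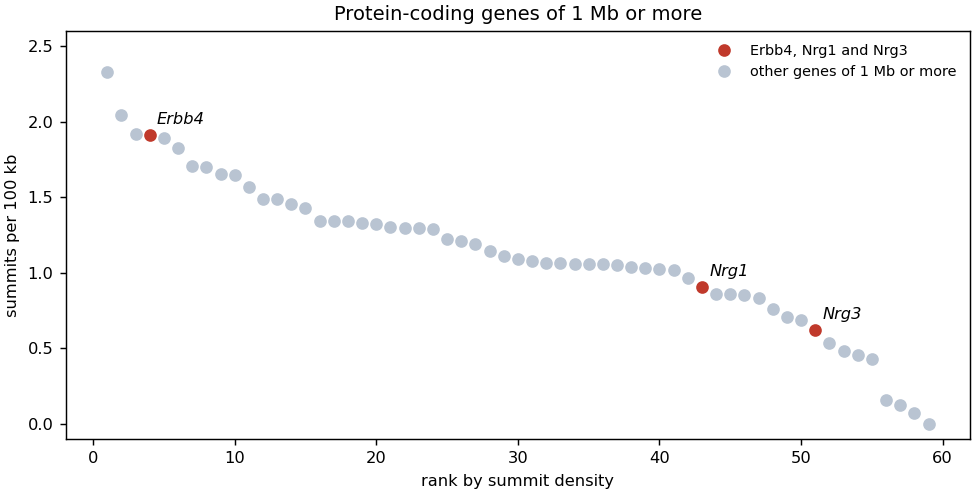
Summit density (summits per 100 kb of gene and flank) of the 59 protein-coding genes of 1 Mb or more, ordered from highest to lowest. Erbb4 stands at rank 4 with 1.91, Nrg1 at rank 43 with 0.906 and Nrg3 at rank 51 with 0.620.

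The sequence around Erbb4 held few summits. There were 1 in the 500 kb below its window and 5 in the 500 kb above, or 0.600 per 100 kb (0.220 to 1.31), so the density in Erbb4 was 3.19 times that beside it (1.25 to 9.66). With 1 Mb on either side in place of 500 kb the ratio was 1.47 (0.788 to 2.72), and with 250 kb it was 3.19 (0.953 to 16.7). With peaks at the common control level and 500 kb it was 2.74 (0.829 to 11.6), and the flanks were chosen after the gene counts were seen. Nrg1 had 5 summits in the same 1000 kb beside it, Nrg3 had 12, Nrg4 and Egfr had 14 each, and Nrg2 had 23. The intervals of the density ratio to these flanks all held 1 for the genes other than Erbb4.

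Within Erbb4 the summits were spread from end to end with uneven spacing, which was not tested against random placement. The gene lies on the minus strand, and 5 segments of equal length, counted from the start, held 5, 4, 1, 7 and 4 summits. The densest stretch held 7 summits in 132 kb, from 68356079 to 68488133, and next to it on the side of the gene start lay the longest stretch without any, 209.6 kb up to 68697772. The peak with the highest fold in any of the 8 genes was in that dense stretch, at 68389107 to 68389363, with a fold of 3.63, 20 ChIP fragments at the summit and a q of 0.00437. A fold this high or higher was found at 1012 peaks of the list. The next in Erbb4 were 3.46 at 68356079, with 19 fragments, and 3.40 at 68079805, with 20 fragments, which was also the summit nearest the 3′ side of the gene, 47921 bp inside it. The summit nearest the start lay 19610 bp from it and had a fold of 2.59 and 14 fragments. The widest peak, 428 bp at 68114029 to 68114456, had 14 fragments and a fold of 2.59. The weakest summit was at 68851487, with 11 fragments, a fold of 2.08 and a q of 0.575.

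**Figure D3:**
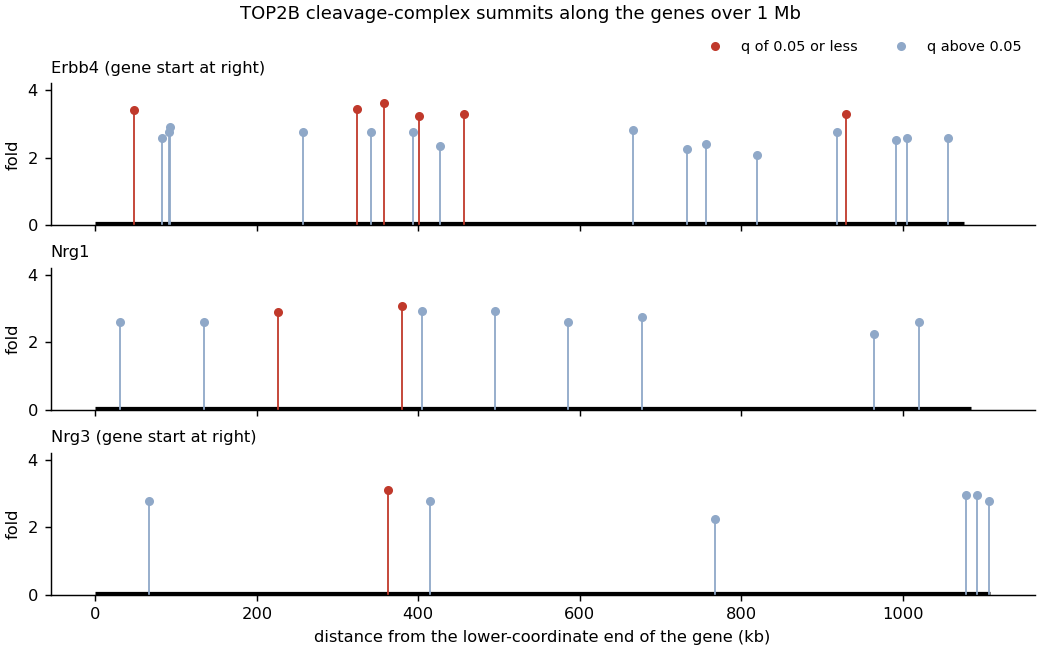
Summits along Erbb4, Nrg1 and Nrg3, by distance in kb from the lower-coordinate end; stem height is the authors' fold enrichment, red marks a q of 0.05 or less and blue a higher q. Erbb4 shows 7 summits between 324 and 456 kb and none from there to 666 kb, and Nrg3 shows 3 close to its start at the right.

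Nrg1, the neuregulin with the most isoforms, had a median of 91.7 kb between neighbouring summits. The median was 31.6 kb in Erbb4 and 174 kb in Nrg3. Even spacing of the same counts would give 98.6 kb in Nrg1, 48.9 kb in Erbb4 and 139 kb in Nrg3. The strongest summit of Nrg1, at 32187912, had a fold of 3.08, 18 fragments and a q of 0.0318. The next 2, at 32212156 and 32301972, each had a fold of 2.94 and 16 fragments. A second summit with 18 fragments and a q of 0.039 lay at 32033100. The outermost summits were 30364 bp inside the lower-coordinate end, with 14 fragments, and 63951 bp inside the upper one, also with 14 and with the widest peak of the gene at 354 bp. The summit nearest the upper end, at 32827658, and the weakest, with 12 fragments at 32771711, also lay in the long noncoding RNA gene Gm39155, which lies within Nrg1. No summit occurred over 287 kb between 32484641 and 32771711.

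The 7 summits of Nrg3, a neuregulin that binds ErbB4, were described by position, and no test of their arrangement was made. Of the 7, 3 lay within 30 kb of the gene start, at 1127, 15404 and 29481 bp from it, with 15, 16 and 16 fragments and folds of 2.77, 2.94 and 2.94. The one nearest the start had the widest peak of the gene, 342 bp, and the one farthest of the 3 also lay in the predicted protein-coding gene Gm31606. The strongest summit was far inside, at 38727658, with 17 fragments, a fold of 3.11 and a q of 0.039, the only q of 0.05 or less in the gene. A stretch of 352 kb, from 38780251 to 39132545, held none. The summit nearest the other end was 66187 bp inside it, with 15 fragments.

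Egfr, the EGF receptor gene on chromosome 11 (16752203 to 16913907), held 5 summits, all in the 92 kb on the side of its start. The peak at the start ran from 40 to 229 bp past the start site, with its summit 200 bp past it, just downstream of the sequence shown. It had the minimum width in the list, 190 bp, 15 fragments and a fold of 2.77. The same 15 fragments and fold were found at 16804137 and 16836774. The summit at 16815894, also in the antisense gene Egfros, had 16 fragments and a fold of 2.49, and that at 16844173 had 15 and a fold of 2.14 in the widest peak of all 8 genes, 451 bp. None of the 5 had a q of 0.05 or less, and the last 69.7 kb of the gene held none. Its gene-end summit, the only 1 among 51, is a share of 1.96%, against 4.89% of the whole list at the ends of protein-coding genes by the same distance. No interval was computed for that share and the 2 values were not matched for gene length, so no difference is read from them.

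Nrg2, on chromosome 18 (36014581 to 36197532), also held 5 summits. A pair at 36053041 and 36053771, 730 bp apart, had 16 fragments and a fold of 2.94 each, and count as a single site when entries within 1 kb are merged. Those at 36078310 and 36139946 had 14 fragments and a fold of 2.59 each, and that at 36151239 had 17, a fold of 3.11 and a q of 0.039. The summit at 36078310 also lay in the noncoding gene Gm41694. Among the 3 genes closest in length, Tgfbr3 and Zfp704 also had 5 summits and F13a1 had 1, whereas beside Egfr, Tusc3 and Lrp2 had 2 each and Lrrtm3 had 0.

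Nrg4, an ErbB4 ligand gene of 63.4 kb on chromosome 9 (55220222 to 55283654), held 3 summits, all within 32 kb of its start. They lay 5559, 25184 and 31976 bp from the start, with 17, 17 and 16 fragments and folds of 3.11, 3.11 and 2.94. The nearest had a wide peak of 411 bp, and the 2 with 17 fragments had a q of 0.039. The 31.4 kb on the side of the 3′ end held none.

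**Figure D4:**
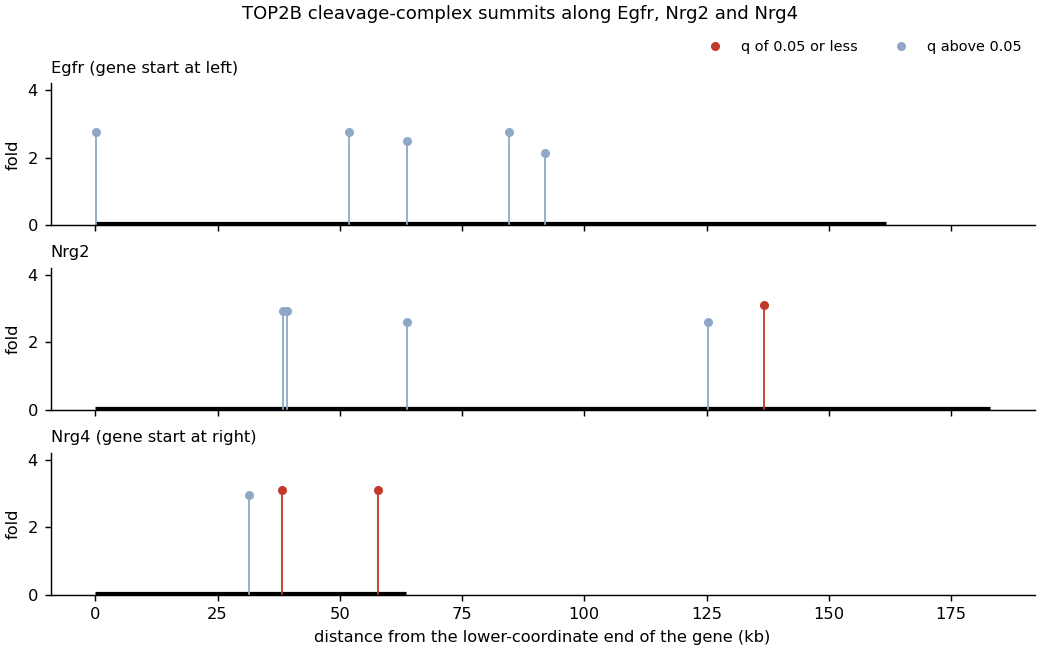
Summits along Egfr, Nrg2 and Nrg4, by distance in kb from the lower-coordinate end, drawn as stems of the authors' fold enrichment with red for a q of 0.05 or less. The Egfr summits lie in the 92 kb from its start at the left, and the Nrg4 summits within 32 kb of its start at the right.

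Erbb2, on chromosome 11 (98412484 to 98437716), and Erbb3, on chromosome 10 (128567523 to 128589635), had no summit in windows of 45.2 kb and 42.1 kb. A count of 0 allows up to 3 summits by a one-sided limit, or 6.63 and 7.12 per 100 kb. The two-sided intervals used for the other genes reach 8.16 and 8.76. A difference from the other members was therefore not detectable in windows this short. Of the 2478 protein-coding genes of 20 to 30 kb, 53.2% had a summit. The 1000 kb beside them held 15 summits for Erbb2 and 18 for Erbb3.

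Strength at the summits was close to that of the whole list. The median over the 51 was 15 fragments and a fold of 2.77, and the list had the same medians, 15 and 2.77. A q of 0.05 or less was found at 12 of the 51 (23.5%; 12.8 to 37.5), against 23.4% of the list, so the share of such peaks in these genes was at the background. Of these 12, 6 were in Erbb4, 2 each in Nrg1 and Nrg4, and 1 each in Nrg2 and Nrg3. The q of the 51 summits ran from 0.00437 to 0.575, with a median of 0.110, so most had a q above 0.05.

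Peaks in Erbb4 tended to be wide. They had a median width of 278 bp, above the upper quartile of the list at 269 bp, and 12 of its 21 peaks exceeded that quartile. The 30 peaks of the other genes had a median of 219 bp, with 6 above the quartile, and the list's median was 222 bp. Among peaks at the common control level the medians were 265.5 bp in Erbb4 (12 peaks), 219 bp in the others (26 peaks) and 221 bp in the list. This measure was looked at after the widths were seen, and no test was made.

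**Figure D5:**
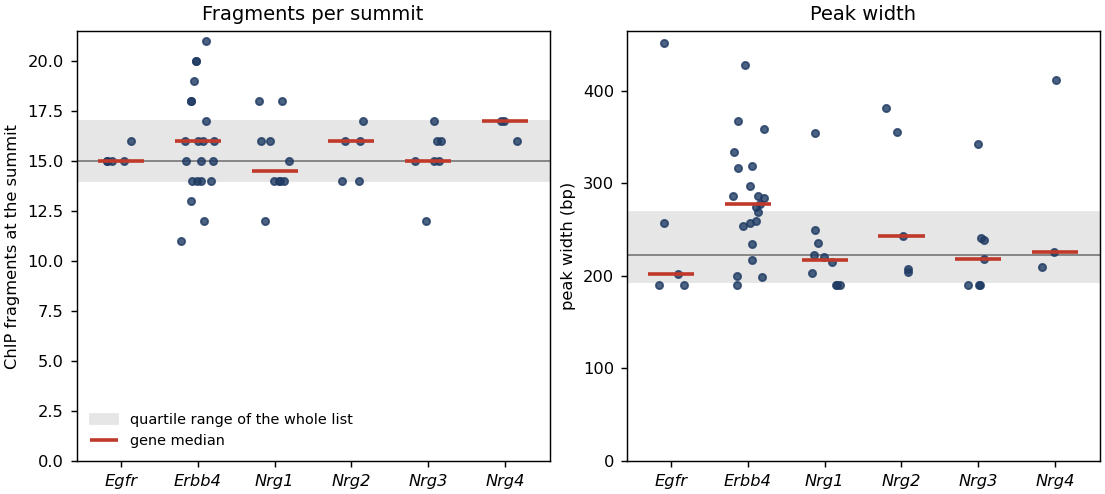
ChIP fragments at the summit (left) and peak width in bp (right) for each of the 51 peaks by gene; red lines are gene medians, the grey band and line are the quartile range and median of the whole list. Fragments lie around the list's median of 15 in each gene, and the median width in Erbb4, 278 bp, lies above the band.

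Other genes of the pathway were counted by the same rule, for which the share over all protein-coding genes was 53.4%. That share was 48.8% under 100 kb and 90.2% from 100 kb to 1 Mb, and none matched to these lists by length was computed. The adaptor and downstream lists below had median spans of 64.6 and 64.1 kb, with 4 and 5 genes of 100 kb or more. Of 7 other ErbB ligand genes, 3 had a summit, 1 each in Ereg, Hbegf and Tgfa. Of 9 genes for shedding and intramembrane cleavage of ligands and receptors, 7 had one; Adam19, a metalloprotease gene, had 7 summits in 92.8 kb, and Adam10, another metalloprotease gene, had 2. Of 17 adaptor and regulator genes, 12 had one, with 3 each in Cblb and Crk, and in Erbin, which encodes a binding partner of ErbB2. Of 21 downstream kinase and factor genes, 19 had one, led by Gsk3b with 4, and Tmeff2 had 8 and Tmeff1 2 among 3 related transmembrane genes. Densities of the lists ran from 0.768 per 100 kb for the ligands (0.158 to 2.24) to 2.70 for shedding and cleavage (1.51 to 4.46), and each interval held the 1.65 of the other protein-coding genes.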

How the data were processed

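Per the labels' protocols, TOP2B complexes were isolated by native ChIP from sonicated lysates, and libraries were made after lambda exonuclease digestion and linear amplification. FastQC, Trimmomatic, BWA, SAMtools and MACS2, without versions, and builds mm10 and GRCm38.p6 are named in the submitters' processing notes; the sources used here state neither settings, duplicate treatment nor which libraries were pooled. The deposited narrowPeak list has no header; by its column order the authors gave a linear fold (a ratio of pileup over control), −log10 p and −log10 q per peak, and a display score that was not used. Positions were made 1-based.

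Fragments and control level per summit were solved from fold (1 added to both) and the Poisson tail, within 0.002 of −log10 p, uniquely for 35529 of 35539 peaks. A control level within 0.02 of 4.78 counted as common. The 34 peaks on scaffolds and patches were left out, and gene spans came from a RefSeq table of GRCm38.p6. The table gives no exons, so exonic or intronic position was not assigned. All 8 genes were named; for those with over 5 summits, the 3 of highest fold, the outermost and the widest, with others named after their values were seen. The 3 genes nearest in length to each gene with at least 5 summits were named too. Some genes that these rules select are not reported here. Genes, lists and comparisons were chosen with earlier results of these data known. No p-value was computed. Python 3.11.15, numpy 2.4.6, pandas 2.3.3, scipy 1.17.1 and matplotlib 3.10.9 were used, and the counting and reconstruction were checked on simulated data.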

Additional observations from a re-analysis of the deposited data

How the results depend on the processing

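No paired analysis was possible because the deposited list is pooled and carries no replicate columns. Restricting the list changed counts: with a q of 0.05 or less the 8 genes held 12 summits, 0.309 per 100 kb, a median fold of 3.17 and 0 summits near gene ends, and with a fold at or above the list's median 29 summits, 0.747 per 100 kb, 41.4% of them with a q of 0.05 or less, both by the construction of the filter. Without Erbb4 30 summits were left. A gene-end window of 5 kb gave 2 summits, Nrg3 being the added gene. The ratio of the density of the 8 genes to that of other protein-coding genes was 0.796 and ran from 0.653 to 0.894 over all settings. For Erbb4 against Nrg3, a ratio of 3.09, the interval held 1 at a q of 0.05 or less (6.17), at a fold at or above the median (2.06) and at the common control level (1.76). For Erbb4 against its flanks, a ratio of 3.19, it held 1 at a fold at or above the median (3.04), at the common control level (2.74) and with flanks of 250 kb (3.19) or 1 Mb (1.47); no value was had at a q of 0.05 or less, where the flanks held no summit. For Erbb4 against the other genes of 1 Mb or more, a ratio of 1.70, it held 1 with entries merged (1.64), at a fold at or above the median (1.60), at the common control level (1.35) and at a q of 0.05 or less (2.11). For receptor against neuregulin genes, a ratio of 1.92, it held 1 at a fold at or above the median (1.50), at the common control level (1.20), at a q of 0.05 or less (1.84) and without Erbb4 (1.87). These settings for the last 4 ratios were chosen after seeing the data. The cause of these differences was not tested, beyond the smaller counts the filters leave. Flanks of the gene of 0 or 50 kb, overlap of the interval and merging of entries within 1 kb kept these ratios above 1 with their intervals, apart from the merging named above. Depth per library is unknown and limits single sites most.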
